A study of Mus musculus with 5 samples.

Results

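The 10 genes described here are the E2F transcription factors E2f1, E2f2, E2f3, E2f4 and E2f8, the pocket protein genes Rb1, Rbl1 and Rbl2, and the E cyclin genes Ccne1 and Ccne2, taken with every array probe whose platform gene symbol is one of them. They hold 17 of 45281 probes, and 10 of the 19057 genes that have a probe with a unique symbol. The rule that chose them uses gene names and no measured value. The genes, lists and tests were nevertheless chosen with earlier results of these data known. The rule also speaks of a DP partner, which is not among the 10 names, so the DP genes are described beside them.

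The samples are erythroblasts, the nucleated red cell precursors, of C57BL/6J mouse marrow, whose total RNA was hybridised to 5 Illumina bead arrays. The genotype label is Flvcr deleted for 2 arrays and wild type for the other 3, and the question is how erythroid transcripts change when Flvcr is lost. Flvcr, now named Flvcr1, codes for a transporter that carries heme out of the cell. The labels give no age, no promoter or Cre that drove the deletion, and no statement on whether RNA of several mice was pooled, so p-values cover only the spread among these arrays, part or all of which may be technical. Precision is limited throughout by how few arrays there are.

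Each array gave a log2 signal for each probe, between 6.35 and 15.06 on every array, with a background floor set at 6.83. The Flvcr1 probe above that floor was higher in the arrays labelled Flvcr-deleted (mean 9.81 against 8.24), and whether it lies in the deleted part is unknown here, so it is no check of the deletion or of the labels. Groups carry their labels' names below, and each direction depends on those labels. Of 10 erythroblast markers, 8 were measured, and all 8 lay above the floor on every array, with the alpha globin gene Hba-a1 at means of 14.71 and 14.83. In bulk RNA, fewer cells of a type and less RNA per cell cannot be told apart.

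E2F factors bind the promoters of genes needed for DNA synthesis, most of them as a dimer with a DP protein. Pocket proteins (pRB from Rb1, p107 from Rbl1 and p130 from Rbl2) hold E2F factors in a repressed state until cyclin-dependent kinases phosphorylate them. Cyclins E1 and E2 activate CDK2, which completes that phosphorylation and starts S phase. Several E2F and pocket protein genes, and both E cyclin genes, are themselves E2F targets. In mouse erythropoiesis the last divisions of erythroblasts are coupled to maturation, and loss of Rb1, E2f2 or E2f4 is known to disturb red cell production.

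Because such genes can be read by E2F themselves, the start sites of 4 of them are shown, with the words of an E2F site in capitals. They are E2f2, Rbl1 and Ccne1, whose signals fell, and E2f3, whose signal did not pass the test. Each runs 5′ to 3′ from 70 bases before to 50 bases after a RefSeq start site (GRCm38.p6).
E2f2, chr4:136172204-136172323, plus strand: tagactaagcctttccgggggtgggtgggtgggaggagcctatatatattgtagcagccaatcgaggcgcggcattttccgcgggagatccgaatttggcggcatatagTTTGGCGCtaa
E2f3, chr13:29986014-29986133, minus strand: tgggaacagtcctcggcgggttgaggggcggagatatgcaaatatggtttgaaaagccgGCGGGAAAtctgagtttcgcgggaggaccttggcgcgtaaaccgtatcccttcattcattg
Rbl1, chr2:157204485-157204604, minus strand: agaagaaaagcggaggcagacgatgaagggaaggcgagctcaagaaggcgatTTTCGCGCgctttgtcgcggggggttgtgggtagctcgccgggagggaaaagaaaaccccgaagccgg
Ccne1, chr7:38107441-38107560, minus strand: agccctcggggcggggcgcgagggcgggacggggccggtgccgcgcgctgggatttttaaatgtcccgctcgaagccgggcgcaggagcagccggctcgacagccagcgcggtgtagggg

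The words searched were TTTCCCGC, TTTGGCGC, TTTCGCGC and TTTGCCGC, on both strands, in RefSeq windows from 250 bases before to 50 bases after each start site, where 7 of the 10 genes have a window. At least 1 of the 4 words stood in the windows of E2f2, E2f3 and Rbl1, that is 3 of 7 genes, against 2.60% of all 27025 genes with a window. In Rbl1 the match begins 18 bases before the start site, in E2f3 it begins 11 bases before it on the minus strand of the window, and in E2f2 it begins at base 40 after it. No window of Ccne1, E2f1, E2f8 or Rbl2 held these letters. The starts of the E2f1 and E2f8 windows lie 466 and 477 bases inside the outer end of the gene in the gene table, so those windows describe an inner start site. A match is only a description of the letters, and E2f3, which has one, did not pass the test that E2f2 and Rbl1 passed. The word TTTGAA, known as the CHR and bound by the MuvB complex, stood in the windows of 4 of 7 of these genes (E2f2, at a second start site 8508 bases inside the gene, E2f3, E2f8 and Rbl2), against 20.2% of all genes. Its letters TTTG also begin the E2F words TTTGGCGC and TTTGCCGC.

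Of the 10 genes, 9 were measured, and 8 of these 9 fell in the arrays labelled Flvcr-deleted, none rose and E2f3 did not pass (limma, Benjamini-Hochberg adjusted p under 0.05 over 10076 genes). Over all genes tested, 17.5% were called lower, 21.8% higher and 39.3% changed in either direction. The median log2 difference of the 9 genes was -0.92, against 0.01 over all genes tested. All 9 lay above the floor on all 5 arrays, so none entered the test through 1 group alone. The signals of the groups did not overlap, with the arrays labelled Flvcr-deleted lower, in 8 of the 9, against 26.8% of all genes tested.

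**Figure D1:**
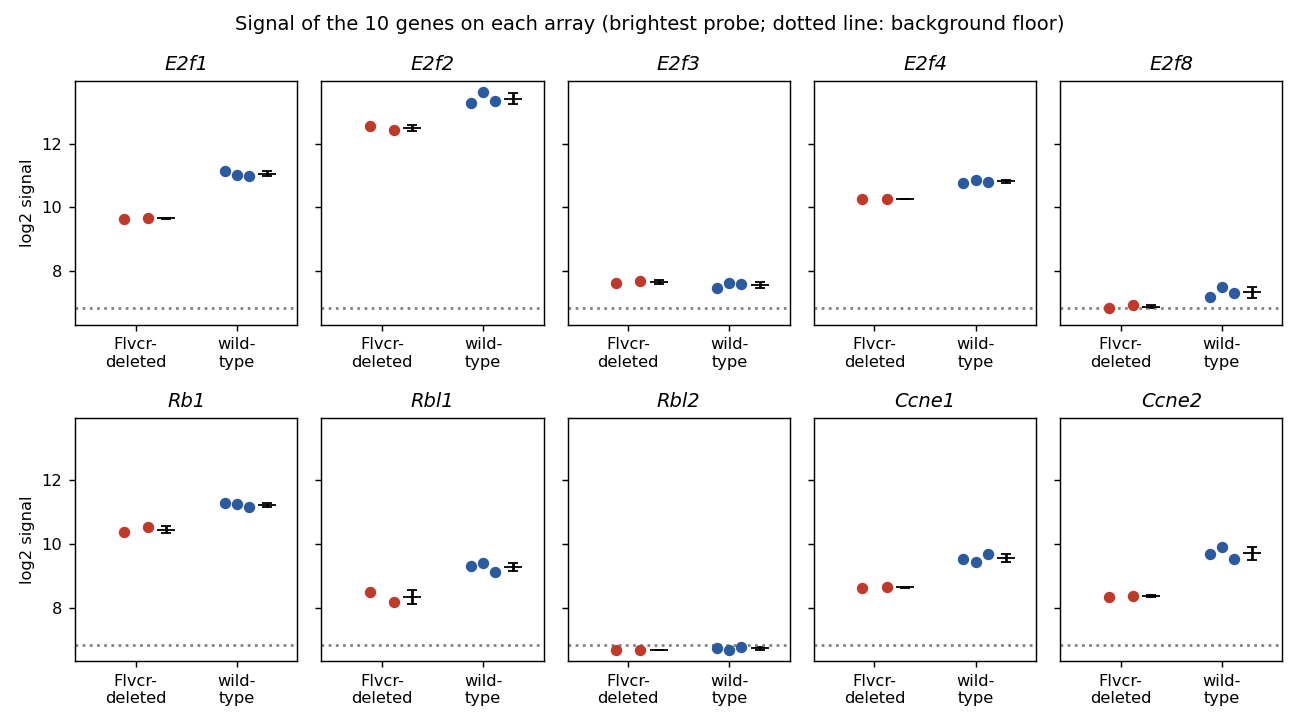
Log2 signal of each of the 10 genes on each array, for its brightest probe, with the mean and SD of each group beside the points and the background floor of 6.83 as a dotted line. The 2 arrays labelled Flvcr-deleted lie below the 3 labelled wild-type in 8 panels, E2f3 overlaps and Rbl2 stays under the floor.

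Among the activating E2F factors, E2f1, the factor that drives entry into S phase and can also trigger apoptosis, had the lowest difference. Its signals were 9.65 and 9.67 in the arrays labelled Flvcr-deleted, against 11.14, 11.01 and 11.00 in those labelled wild-type. The groups lay well apart, and each was tight. Their means were 9.66 ± 0.01 (SD, n = 2) against 11.05 ± 0.08 (SD, n = 3), which is 2.63-fold lower, or -1.39 on the log2 scale with an SE of 0.10 (limma, adjusted p = 1.79e-05), and 1.94% of all genes tested had a lower difference.

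E2f2, the E2F factor best known from erythroblasts, where in mice it is a target of the factor KLF1, has 3 probes, all to the same RefSeq transcript. By its brightest probe it read 12.56 and 12.43 against 13.27, 13.62 and 13.36. Every array labelled Flvcr-deleted was below every array labelled wild-type, and the signal was 1.90-fold lower, at -0.92 on the log2 scale with an SE of 0.13 (limma, adjusted p = 0.000451). Another probe read 11.62 and 11.83 against 12.86, 13.04 and 12.78, and gave -1.17 (SE 0.12, limma, adjusted p = 9.40e-05 over all 17729 probes kept). The remaining probe read 7.40 and 7.12 against 7.15, 7.79 and 7.61. There the groups overlapped, and the difference of -0.25 (95% interval -0.66 to 0.16) did not pass (limma, adjusted p = 0.331).

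E2f3, the remaining activating factor, was the measured gene that did not pass. Its signals were 7.61 and 7.69 in the arrays labelled Flvcr-deleted, against 7.47, 7.63 and 7.58 in those labelled wild-type. The groups overlapped, and the log2 difference of 0.09 had a 95% interval from -0.14 to 0.32 (limma, adjusted p = 0.551). In signal, that interval leaves out falls of the size of the other activating factors by their brightest probes. At these signals part of the value is background, so the interval does not bound the change in transcript. Its other probe lay above the floor on 1 of 5 arrays and was not tested.

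E2f4, the repressive E2F that accompanies p107 and p130 and whose loss in mice causes anemia, read 10.26 on both arrays labelled Flvcr-deleted and 10.78, 10.87 and 10.81 on those labelled wild-type. The groups did not overlap, and the fall was moderate, at -0.56 on the log2 scale with an SE of 0.09, or 1.47-fold (limma, adjusted p = 0.00149). E2f8, an atypical repressor that binds DNA without a DP partner, read 6.84 and 6.92 against 7.17, 7.51 and 7.30. Its lower group lay just above the floor of 6.83. The difference was -0.45 (SE 0.12, limma, adjusted p = 0.0158), and without Flvcr-deleted replicate 1 it was -0.41 and did not pass (limma, adjusted p = 0.0967). Signals this near the floor hold background, so the 1.36-fold ratio understates any change in transcript.

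Of the pocket protein genes, Rb1 and Rbl1 fell and Rbl2 could not be measured. Rb1 has 2 probes to the same RefSeq transcript. The brighter read 10.38 and 10.53 against 11.30, 11.24 and 11.18, which is 1.72-fold lower, at -0.79 on the log2 scale with an SE of 0.10 (limma, adjusted p = 0.000326). The other read 9.99 and 9.91 against 11.04, 11.44 and 11.43. Its difference was -1.35 (SE 0.13, limma, adjusted p = 9.61e-05 over all probes kept), so both probes fell. With their mean in place of the brighter one, Rb1 was at -1.07.

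Rbl1, which encodes p107, the pocket protein found mostly in dividing cells, read by its brightest probe 8.48 and 8.18, against 9.32, 9.39 and 9.14 in the arrays labelled wild-type. The groups did not overlap, and the signal was 1.93-fold lower, at -0.95 on the log2 scale with an SE of 0.13 (limma, adjusted p = 0.000401). Its other 2 probes, designed to cDNA clones, lay near the floor. The brighter of them read 6.79 and 6.91 against 7.55, 7.14 and 6.95, with 1 of 2 arrays labelled Flvcr-deleted above the floor, and did not pass (limma, adjusted p = 0.123). The dimmer read 6.84 and 6.81 against 7.03, 6.70 and 6.83, with 1 of 2 and 2 of 3 arrays above the floor, and did not pass either (limma, adjusted p = 0.882). With the mean of the 3 probes in place of the brightest, Rbl1 was at -0.45 and still passed (limma, adjusted p = 0.0117). Rbl2, which encodes p130, the pocket protein of resting cells, was not above the floor on any array by either probe, with means of 6.68 and 6.72 by the brighter one, and no difference is given.

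Both E cyclins fell. Ccne1 read 8.63 and 8.65 against 9.52, 9.44 and 9.70. The groups lay apart, and the signal was 1.89-fold lower, at -0.92 on the log2 scale with an SE of 0.11 (limma, adjusted p = 0.000216). Ccne2 read 8.34 and 8.38 against 9.67, 9.92 and 9.53. Again no array overlapped, and the signal was 2.55-fold lower, at -1.35 on the log2 scale with an SE of 0.13 (limma, adjusted p = 6.86e-05). The ratio understates a change in transcript where background makes up part of a signal.

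**Figure D2:**
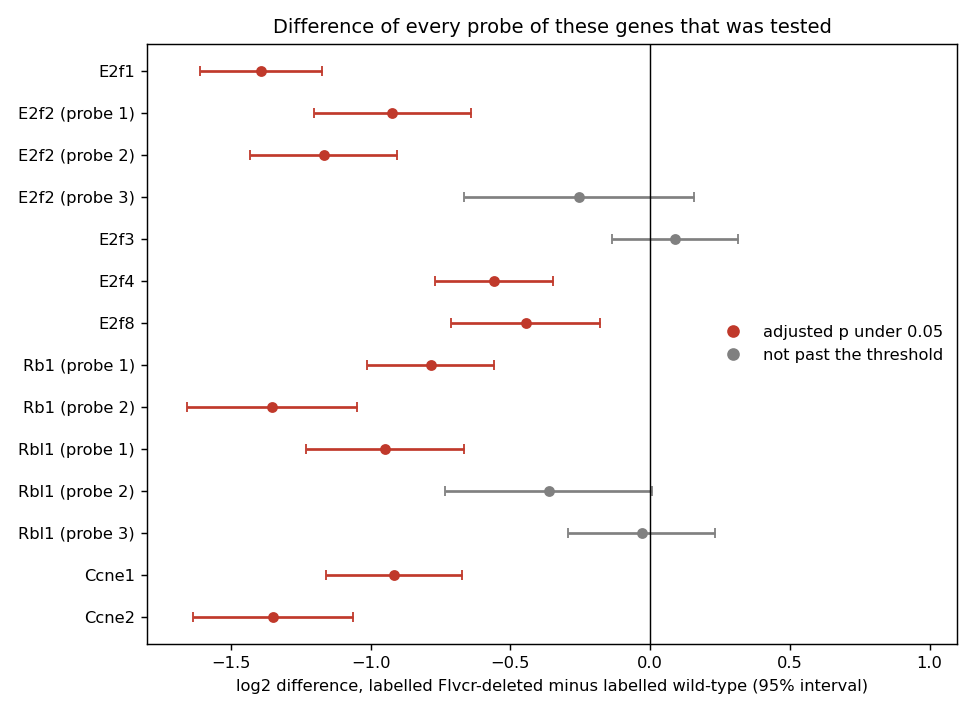
Log2 difference, labelled Flvcr-deleted minus labelled wild-type, with its 95% interval (horizontal axis) for each of the 14 probes of these genes that passed the floor, numbered from the brightest within a gene. The 10 probes in red fell at an adjusted p under 0.05, and the 4 in grey are a probe of E2f2, the E2f3 probe and 2 probes of Rbl1.

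By probe, 10 of the 14 tested were lower, none was higher and 4 did not pass. Of all probes tested, 16.6% were lower, 18.7% higher and 35.3% either. Whether related genes fell by different amounts was tested on each array's log2 ratio of the genes, for 4 pairs (limma's prior variance, adjusted over the 4 pairs). The ratio of E2f1 to E2f2 changed by -0.47 (95% interval -0.86 to -0.08, adjusted p = 0.0676) and that of E2f4 to E2f2 by 0.36 (0.04 to 0.69, adjusted p = 0.0676). The ratio of Ccne1 to Ccne2 changed by 0.43 (-0.01 to 0.87, adjusted p = 0.0725) and that of Rb1 to Rbl1 by 0.16 (-0.22 to 0.55, adjusted p = 0.354). None passed, and the intervals still allow differences of up to nearly 0.9 on the log2 scale. Without wild-type replicate 2 the E2f1 to E2f2 ratio changed by -0.59 and passed (adjusted p = 0.0267), as did the Ccne1 to Ccne2 ratio at 0.60 without wild-type replicate 3 (adjusted p = 0.0303). When the probes of a gene were averaged, the Rb1 to Rbl1 ratio turned to -0.62 and passed (adjusted p = 0.0104), so the order of the falls of these 2 genes depends on the probe. A pair with Rbl2 could not be tested.

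Among the E2F and DP genes outside the 10, Tfdp2, which encodes the DNA-binding partner DP2 of most E2F factors, fell at each of its probes, while Tfdp1, which encodes DP1, did not pass. Whether Tfdp2 fell by more than the 10 genes was not tested. By its brightest probe Tfdp2 read 8.60 and 9.01, against 11.43, 11.20 and 10.72 in the arrays labelled wild-type. The groups were far apart, and the signal was 4.95-fold lower, at -2.31 on the log2 scale with an SE of 0.20 (limma, adjusted p = 4.95e-05). All 6 Tfdp2 probes fell, at log2 differences between -2.31 and -1.29, and with the mean of the 6 the difference was -1.63. Tfdp1 read 11.24 and 11.15 against 10.92, 11.07 and 10.99. Its groups did not overlap, but the difference of 0.20 (SE 0.10) did not pass (limma, adjusted p = 0.159).

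**Figure D3:**
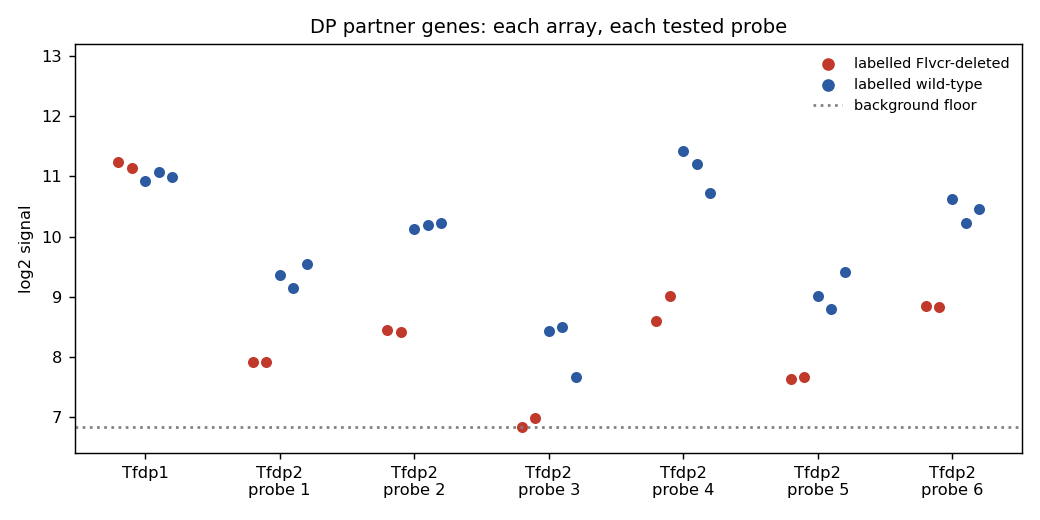
Log2 signal on each array (vertical axis) for the Tfdp1 probe and the 6 Tfdp2 probes, with arrays labelled Flvcr-deleted in red, arrays labelled wild-type in blue and the background floor of 6.83 as a dotted line. For each Tfdp2 probe the red points lie below the blue ones, and for Tfdp1 they lie slightly above.

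E2f5, another repressive E2F, read 7.32 and 7.30 against 6.67, 6.82 and 6.95. With 1 of 3 arrays labelled wild-type above the floor, its mean signal was higher by at least 1.35-fold. That bound leaves out the spread among arrays. The log2 difference was 0.49 (SE 0.11, limma, adjusted p = 0.00655). The other E2f5 probe, to the same RefSeq transcript, read 6.64 and 6.78 against 6.86, 6.67 and 6.63. It was above the floor on 1 array labelled wild-type only and was not tested, so the rise rests on 1 probe. E2f6, a repressor that binds no pocket protein, was at 0.36 (limma, adjusted p = 0.108). It was at 0.59 without Flvcr-deleted replicate 2 and at 0.13 without Flvcr-deleted replicate 1, each of which leaves 1 array in that group. With the mean of its kept probes it was at 0.18, and none of its 5 kept probes passed. E2f7, the other atypical repressor, read 6.67 and 6.95 against 7.14, 6.93 and 6.78, around the floor, and did not pass (limma, adjusted p = 0.497). Of this list of 5, 1 gene was higher and 1 lower, 3 did not pass, and the median was 0.20. A share of 2 in 5 called is near the 39.3% called over all genes.

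The kinases, cyclins and inhibitors that act on the pocket proteins moved both ways, with 7 of 17 measured genes called higher and 5 called lower, while 5 did not pass. Their median was 0.25, and of all genes 21.8% were called higher and 17.5% lower. Without Flvcr-deleted replicate 1, 4 were higher. Cdk2, the kinase that E cyclins activate, read 10.84 and 10.83 against 11.82, 11.87 and 11.91, and fell by 1.03 (SE 0.09, limma, adjusted p = 5.56e-05). Cyclin A2, Ccna2, the next partner of CDK2, was at -0.15 and did not pass, at signals close to the floor. The D cyclins, which start pocket protein phosphorylation with CDK4 and CDK6, split by gene. Ccnd2 read 10.45 and 10.39 against 7.34, 7.59 and 7.64 and rose by 2.90 (SE 0.12), or 1.88 with the mean of its probes, whereas Ccnd3, the D cyclin known to act in erythroblasts, fell by 0.94 (SE 0.13). Ccnd1, with means of 7.62 and 7.23, was called higher at 0.39 (SE 0.13, limma, adjusted p = 0.0376). Cdk4 was also called higher, at 0.76 (SE 0.13). So were the listed activators of these kinases, Mnat1 at 0.70 (SE 0.10) and Ccnh at 0.39 (SE 0.11). Another listed activator, Cdc25a, passed narrowly at 0.33 (SE 0.12, limma, adjusted p = 0.04995).

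The CDK inhibitors also moved both ways. Cdkn1c (0.03), Cdkn2a (0.02) and Cdkn2b (0.27) lay near the floor and did not pass. Cdkn1a, which encodes p21, an inhibitor of cyclin E and CDK2, read 10.42 and 9.82 against 7.02, 7.21 and 7.32. It was 7.65-fold higher, at 2.94 on the log2 scale (SE 0.17, limma, adjusted p = 1.04e-05), and with the mean of its probes it was at 1.79. Cdkn1b, which encodes p27, another inhibitor of CDK2, fell by 0.91 (SE 0.11). The inhibitors of CDK4 and CDK6 Cdkn2c, for p18, and Cdkn2d, for p19, fell as well, at -2.23 (SE 0.13) and -2.40 (SE 0.18), and with the mean of its probes Cdkn2c was at -1.47.

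The MuvB complex joins p107 or p130 with E2F4 as a repressor and B-MYB or FOXM1 as an activator. The MuvB list holds genes of its core together with partner genes. Of its 5 measured genes, 4 fell and none rose, against 17.5% of all genes called lower, and the median was -0.74. The 4 are the partner genes Mybl2 and Foxm1 and the core genes Rbbp4 and Lin54. The core gene Lin37 read 6.76 and 6.98 against 6.84, 6.81 and 6.77, around the floor, and did not pass. Other core genes were not measured. Mybl2, which encodes B-MYB and is a classic E2F target, read 9.36 and 9.35 against 11.02, 10.87 and 10.82. It fell by 1.55 (SE 0.10), and was at -0.91 with the mean of its probes. Foxm1, an activator of mitotic genes, fell by 1.54 (SE 0.11), and the core subunits Rbbp4 and Lin54 had log2 differences of -0.74 (SE 0.10) and -0.63 (SE 0.11), which also passed.

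Most of the listed textbook E2F targets of S phase fell too. Of 27 listed, 21 were measured, and 16 of these were lower, 5 did not pass and none was higher. Their median was -0.63, and 17.5% of all genes were called lower. The largest falls were those of Rrm2, a ribonucleotide reductase subunit (-1.31, SE 0.10), Cdk1, the mitotic kinase (-1.26, SE 0.09), Cdc6, which loads the replicative helicase (-1.06, SE 0.10), and Tk1, thymidine kinase (-1.02, SE 0.10). With the mean of their probes Rrm2 was at -0.90, Cdk1 at -0.71, Cdc6 at -0.96 and Tk1 at -0.59. Of the 23 targets with a RefSeq window, 12 held at least 1 of the 4 E2F words near the start site, against 2.60% of all genes, and 3 held the CHR, that is 13.0% against 20.2% of all genes.

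**Figure D4:**
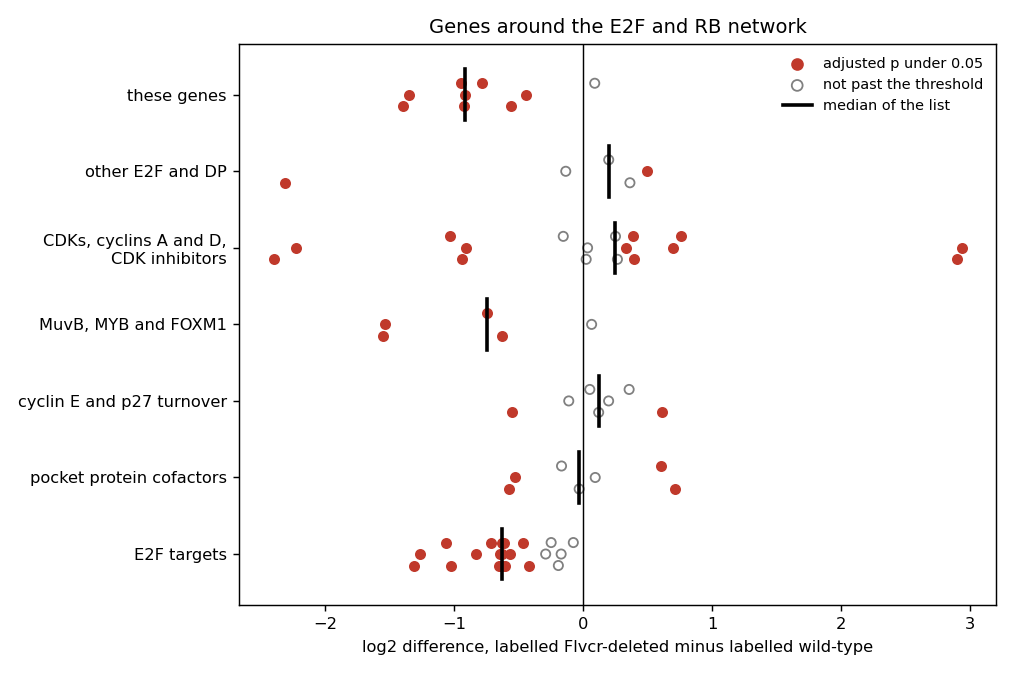
Log2 difference, labelled Flvcr-deleted minus labelled wild-type (horizontal axis), of each measured gene of the 7 lists, filled where the adjusted p was under 0.05, with the median of each list as a bar. The 10 genes described, the MuvB list and the E2F targets have medians of -0.92, -0.74 and -0.63, and the CDK list holds the largest changes in both directions.

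Of 7 measured genes of cyclin E and p27 turnover, 1 was called higher and 1 lower, with a median of 0.12, against 21.8% higher and 17.5% lower over all genes, so the list's counts do not stand above that background. Fbxw7, the F-box protein that marks cyclin E for destruction, read 8.30 and 8.65 against 7.99, 7.71 and 7.89. It rose by 0.61 (SE 0.13, limma, adjusted p = 0.00633), but without Flvcr-deleted replicate 2 it was at 0.43 and did not pass (limma, adjusted p = 0.0632). Skp2, the F-box protein for p27, was not above the floor in the arrays labelled Flvcr-deleted. Its mean signal was lower by at least 1.29-fold, a bound that leaves out the spread among arrays. Its log2 difference was -0.55 (SE 0.12, limma, adjusted p = 0.00466).

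Of 7 measured chromatin partners of the pocket proteins, 2 rose, 2 fell and 3 did not pass, against 21.8% of all genes called higher and 17.5% lower, and their median was -0.03. The histone deacetylase gene Hdac2 (0.60, SE 0.12) and the remodeling ATPase gene Smarca2 (0.71, SE 0.13) rose, and with the mean of its probes Smarca2 was at 0.37. The co-repressor gene Sin3a fell by 0.57 (SE 0.12). The demethylase gene Kdm5a had 1 of 2 arrays labelled Flvcr-deleted above the floor. Its mean signal was lower by at least 1.41-fold, a bound that leaves out the spread among arrays. Its log2 difference was -0.53 (SE 0.15, limma, adjusted p = 0.0231). Kdm5a did not pass when Flvcr-deleted replicate 1 (-0.41) or wild-type replicate 1 (-0.51) or 2 (-0.41) was left out, nor with the mean of its probes (-0.19), and with the floor required on all 5 arrays it was read from another probe and turned to 0.15 (limma, adjusted p = 0.298).

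Markers of other marrow cells also differed between the groups, and their counts stand against 17.5% of all genes called lower. Signals were summed before the log, so the brightest markers of a set weigh most in its sum. Neutrophil lineage markers had 4 of 10 lower, none higher, and a log2 summed signal of 13.33 and 12.52 in the arrays labelled Flvcr-deleted against 14.92 to 15.13 in those labelled wild-type. Mast cell, basophil and eosinophil markers had 5 of 6 lower and summed signals of 10.04 and 10.06 against 12.45 to 13.03, with Mcpt8 under the floor in the lower group. B cell markers had 4 of 6 lower and summed signals of 9.41 and 9.35 against 10.11 to 10.52, with Cd79b, Vpreb1, Vpreb3 and Igll1 under the floor on both arrays of the lower group. Megakaryocyte markers had 2 of 3 lower, T and NK cell markers 1 of 2 and macrophage markers 1 of 7, which is near the share over all genes. Erythroblast markers had 6 of 8 lower, and their summed signal was 16.25 and 16.33 against 16.63 to 16.68. The part of these shifts in the falls of the E2F, pocket protein and E cyclin genes, of the MuvB list and of the E2F targets was not tested.

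**Figure D5:**
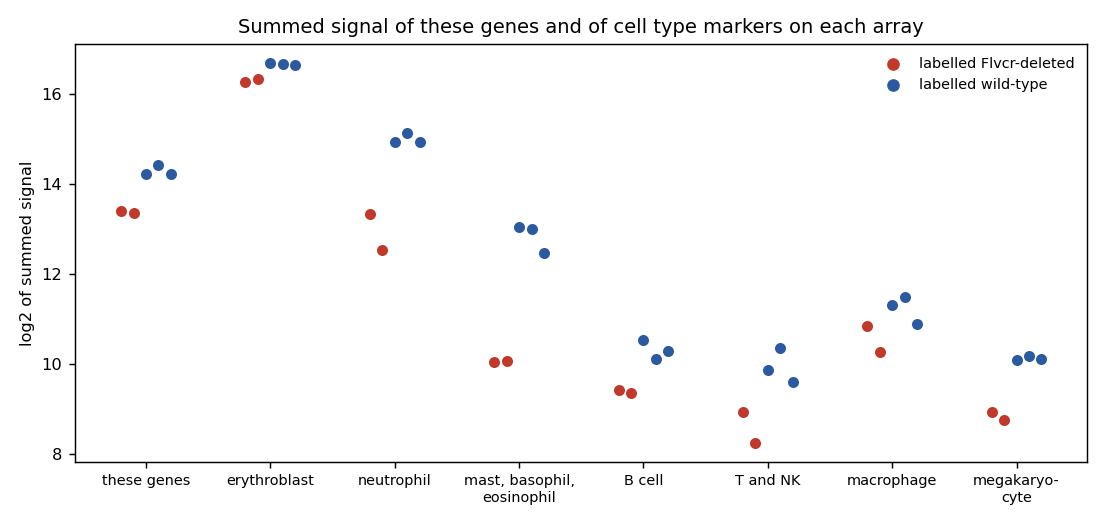
Log2 of the summed signal of the 9 measured genes described here and of each cell type's measured markers (horizontal axis) on each array, with arrays labelled Flvcr-deleted in red and arrays labelled wild-type in blue. The sum over the 9 genes was 13.40 and 13.34 against 14.21 to 14.41, and each set of markers was also lower in the arrays labelled Flvcr-deleted. Signals were summed before the log, so the brightest genes of a set, such as E2f2 among the 9, weigh most.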

How the data were processed

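Expression was measured on 5 Illumina bead arrays, with groups and replicate numbers taken from the sample titles. The values are those the authors deposited for each sample, read as log2 signals from their range. The arrays are nearly alike in level, with medians from 6.756 to 6.757, as arrays are after quantile normalization. The sources used here do not give the log base, software, background treatment or normalization of the values. A table before normalization was not used here, since its 10 columns match no sample's labels. Per the labels' protocols, biotinylated cRNA was made with an Ambion kit.

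The background floor of 6.83 is the mode of the signals on all arrays, 6.70, to which 1.64 SDs were added, with the SD of 0.0824 taken from the values below the mode. Of 45281 probes, 34885 have a unique gene symbol, 18 several and 10378 none. A probe above the floor on at least 2 arrays was kept, 17729 in all, and the kept probe of highest mean signal stood for each of 10076 genes. limma 3.58.1 (lmFit, then eBayes) in R 4.3.3 fitted genotype on all 5 arrays, two-sided, and p-values were adjusted with Benjamini-Hochberg over all genes, or over all probes for values by probe. Where a called gene's dimmer group was at or below the floor on some or all arrays, its fold is given as a bound. For this bound each dimmer array takes at least the floor's value. The bound compares group means and leaves out the spread among arrays. The gene and pair tests were tested on simulated data first. Promoter windows are RefSeq's (GRCm38.p6).

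The 10 genes, the gene lists and the tests were chosen with earlier results of these data known. Named are the 10 genes, Flvcr1, up to 4 called genes of largest change per list, and always Tfdp1, Tfdp2, E2f5, E2f6, E2f7, Cdk2, Ccna2, Ccnd2, Ccnd3, Cdkn1a, Cdkn1b, Fbxw7, Skp2 and Mybl2. Lin37, Ccnd1, Cdk4, Mnat1, Ccnh, Cdc25a, Cdkn1c, Cdkn2a, Cdkn2b and the markers Hba-a1, Mcpt8, Cd79b, Vpreb1, Vpreb3 and Igll1 were named after their values were seen. Alternatives changed the filter, the normalization, the background, the variance model, the probe for a gene, the arrays left out and the replicate block.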

Additional observations from a re-analysis of the deposited data

How the results depend on the processing

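The number of lower genes among the 10 stayed between 7 and 8 and none was higher under all 13 alternatives, and E2f1, E2f2, E2f4, Rb1, Rbl1, Ccne1 and Ccne2 passed in each of them. E2f1 ranged from -1.44 to -1.35, Ccne2 from -1.46 to -1.24 and Rbl1 from -1.10 to -0.45. With the floor required on all 5 arrays, 0 other E2F and DP genes were higher and 0 turnover genes were lower, since E2f5 and Skp2 were not tested. Under that setting 1 chromatin partner was lower, and Kdm5a, read from another probe, was at 0.15 and did not pass. With probes of a gene averaged, 1 chromatin partner was lower, and the change of the E2f1 to E2f2 ratio passed at -0.61 and that of Rb1 to Rbl1 turned to -0.62. Replicate numbers 1 and 2 are shared by the groups, and the deviations of same-numbered arrays correlated at -0.03 and 0.10 over genes, so the numbers were not taken to pair arrays. With the replicate block, 2 other E2F and DP genes and 2 turnover genes were higher, and the Ccne1 to Ccne2 ratio passed at 0.60. With 1 array left out, the counts ranged from 7 to 8 lower for the 10 genes, 9 to 11 for their probes and 13 to 16 for E2F targets, from 4 to 6 higher for the CDK list and 1 to 2 for other E2F and DP genes, and from 1 to 2 lower for chromatin partners. The ratio changes then ranged from -0.59 to -0.35 for E2f1 to E2f2, 0.29 to 0.43 for E2f4 to E2f2, 0.27 to 0.60 for Ccne1 to Ccne2 and -0.06 to 0.39 for Rb1 to Rbl1. The causes of these shifts were not tested. Signal over background limits E2f8, E2f3, Rbl2 and the dim probes of Rbl1 and E2f2.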
